A study of Mus musculus with 12 samples.

Results

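The receptors for vascular endothelial growth factor (VEGF), their co-receptors, the junction and Tie receptor genes that mark endothelial cells, and the ligand Vegfa were followed through the differentiation of mouse embryonic stem (ES) cells towards cardiomyocytes. The 10 genes were taken by name: Kdr, Flt1, Flt4, Nrp1, Nrp2, Cdh5, Pecam1, Tek, Tie1 and Vegfa. On the array 14853 genes had a row of their own, among them 8 of these 10. Exon arrays (Affymetrix Mouse Exon 1.0 ST), on which a gene is read by several probe sets, were used at 3 stages with 2 samples each. These were undifferentiated ES cells (day 0), embryonic bodies, which are aggregates of differentiating cells (day 7), and cardiac bodies (day 14). Cells of all stages were grown in a DMEM-based medium with 10% serum, and no genotype, cell line or treatment is named in the labels used here. Whether samples of a stage were grown as separate cultures is not stated, so p-values reflect only the spread between them, and that spread may be technical. Every sample was summarised at the gene and at the exon level, giving 12 profiles. Both levels describe the same samples and are not separate measurements.

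VEGF signals through receptor tyrosine kinases on endothelial cells. Kdr encodes the main signalling receptor, VEGFR2, which also marks early mesoderm with blood, vessel and heart potential, Flt1 encodes VEGFR1, which binds VEGF-A tightly and also exists as a soluble form, and Flt4 encodes the receptor of lymphatic growth factors. The neuropilins Nrp1 and Nrp2 are co-receptors shared with semaphorins. Endothelial identity is read from VE-cadherin (Cdh5), the adhesion molecule CD31 (Pecam1) and the angiopoietin receptor Tek with its partner Tie1, while ETS-family factors are known to bind the promoters and enhancers of many of these genes.

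Of the 10 genes, 8 had a gene-level row with that symbol alone. The gene-level row of Flt4 also carried olfactory receptor symbols, so Flt4 was given as the mean of its 32 exon-level probe sets. Nrp2 had no row or probe set of its own, since its transcript cluster and all its probe sets also carried the symbol Pard3b. That cluster had log2 signals of 6.63 and 6.55 in ES cells, 9.49 and 8.73 in embryonic bodies and 6.33 and 6.80 in cardiac bodies. It rose by 2.52 ± 0.31 in embryonic bodies relative to ES cells (adjusted p = 0.00985) and fell by 2.55 ± 0.31 in cardiac bodies relative to embryonic bodies (adjusted p = 0.0194). Which of the pair gave the signal cannot be told apart, and Nrp2 is not counted among the 9 measured genes.

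Promoters from RefSeq (assembly GRCm38.p6, the 250 bases before the annotated start and the first 50 from it) were held for 8 of the genes, with 2 entries for Vegfa. Cdh5 and Pecam1 had no entry in the table. The promoters of Kdr (chr5:75978406-75978705, minus strand), Flt1 (chr5:147725962-147726261, minus strand) and Tie1 (chr4:118489800-118490099, minus strand) are shown because these receptors passed the test in both steps of the time course. They are printed 5′ to 3′ with matches to the ETS motif, searched as CGGAAG and AGGAAG on both strands, in capitals.
Kdr: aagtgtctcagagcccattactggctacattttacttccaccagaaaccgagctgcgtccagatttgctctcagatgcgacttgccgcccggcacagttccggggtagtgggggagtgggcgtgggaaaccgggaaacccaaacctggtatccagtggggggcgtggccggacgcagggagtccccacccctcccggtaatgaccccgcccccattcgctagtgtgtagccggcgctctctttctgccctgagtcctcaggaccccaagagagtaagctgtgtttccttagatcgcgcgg
Flt1: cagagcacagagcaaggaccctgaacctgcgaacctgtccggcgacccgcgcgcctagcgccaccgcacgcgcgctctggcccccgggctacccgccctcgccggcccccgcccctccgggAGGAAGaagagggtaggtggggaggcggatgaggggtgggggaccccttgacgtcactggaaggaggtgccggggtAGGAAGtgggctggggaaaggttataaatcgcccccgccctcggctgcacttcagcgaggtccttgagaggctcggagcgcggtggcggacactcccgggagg
Tie1: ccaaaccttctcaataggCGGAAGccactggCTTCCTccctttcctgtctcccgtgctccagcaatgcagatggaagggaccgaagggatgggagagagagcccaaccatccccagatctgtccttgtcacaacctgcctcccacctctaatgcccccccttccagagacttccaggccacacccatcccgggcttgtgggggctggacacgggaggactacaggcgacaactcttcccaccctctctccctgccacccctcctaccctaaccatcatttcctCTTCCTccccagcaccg
The Flt1 window held 2 ETS matches, at bases -129 and -53 relative to the annotated start, and a TATAAA at base -31. The Tie1 window held 3 ETS matches, at bases -232, -219 and 34, and the Kdr window held none. Nrp1 had 1 match, and no ETS match was found in the windows of Flt4, Nrp2, Tek and Vegfa. ETS matches were thus found in 3 of 9 windows, against 46.5% of all 32851 promoters of the same length. Other motifs were also searched on both strands. GATAA occurred in the windows of Tek and of 1 Vegfa entry (25.4% of all promoters), ACAAT in Tek at 2 places (31.0%) and TATAAA in Flt1 (13.6%). ACGTG, the core of the hypoxia response element, occurred in the other Vegfa entry (19.6%), at base -211. That entry (chr17:46025114-46025413, minus strand) lies downstream of the one with GATAA (chr17:46032328-46032627), which held no ACGTG. A match describes the letters of a window and not a bound site.

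Markers were read to check the labels. The 10 measured cardiomyocyte markers had mean log2 signals of 5.42 and 5.46 in ES cells, 5.81 and 5.95 in embryonic bodies and 11.03 and 10.84 in cardiac bodies. The mean of 12 pluripotent cell markers was 10.69 and 10.59, 7.73 and 7.72, and 9.82 and 10.06 at the same stages, so these markers were lowest in embryonic bodies and not in cardiac bodies. All 10 cardiomyocyte markers rose in cardiac bodies relative to ES cells, where 2.63% of all clusters rose. Some of these calls were lost without an ES cell sample. Differences below are log2 differences between stage means ± the standard error of a limma fit over all 23332 transcript clusters (for Flt4, over the probe set means of 16358 genes). Calls are at a limma p under 0.05 after Benjamini-Hochberg adjustment over all rows. Levels were compared between stages and not between genes, because probes differ in brightness. These are bulk samples, in which fewer cells of a type and less RNA per cell cannot be told apart.

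**Figure D1:**
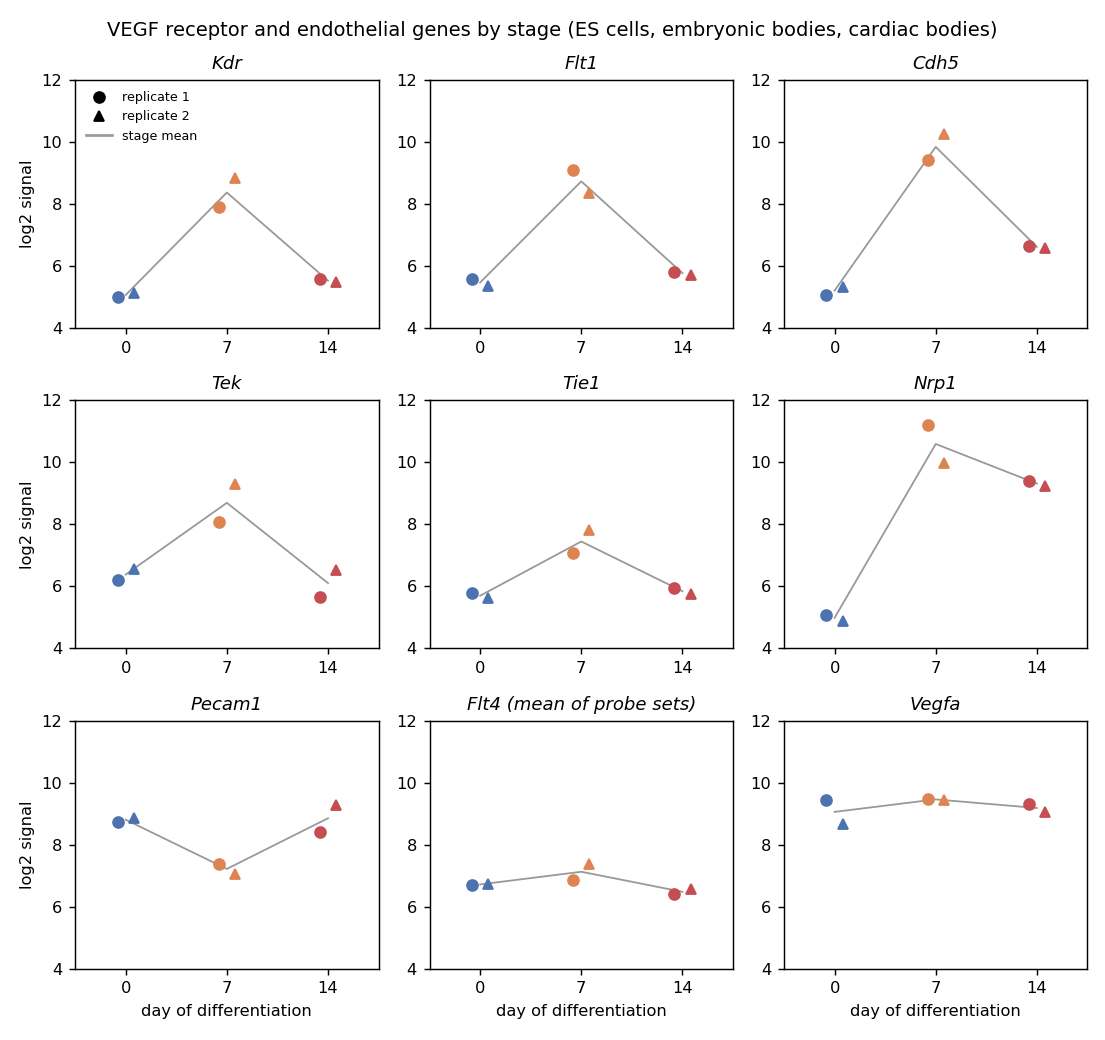
Log2 signal (y axis) of the 9 measured genes by day of differentiation (x axis), with ES cells on the left, then embryonic bodies and cardiac bodies. Circles are replicate 1, triangles replicate 2 and lines join the stage means. Kdr, Flt1, Cdh5, Tek and Tie1 peaked at day 7, Nrp1 was also high at day 14, Pecam1 was lowest at day 7, and Flt4 and Vegfa passed the test in no comparison.

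In embryonic bodies against ES cells, most of these genes were higher. Kdr, Flt1, Nrp1, Cdh5, Tek and Tie1 rose, Pecam1 fell, and Flt4 and Vegfa did not pass the test. The share of all clusters called in this comparison was 5.35% higher and 5.28% lower, 10.6% in all, against 6 of 9 and 1 of 9 of these genes. Their median difference was 2.31, against -0.0229 over all clusters. Without replicate 1 of the embryonic bodies 6 rose and none fell. Without replicate 2 of them, and also without either ES cell sample, 4 rose and none fell, and without either cardiac body sample 5 rose and 1 fell.

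Among the receptors, Kdr (transcript cluster 6939241) had log2 signals of 5.0002 and 5.13 in ES cells, 7.91 and 8.82 in embryonic bodies and 5.56 and 5.49 in cardiac bodies. Both embryonic body samples lay above all other samples, with no overlap. Kdr was 9.86-fold higher in embryonic bodies than in ES cells (log2 difference 3.30 ± 0.32, adjusted p = 0.00532). It fell by 2.84 ± 0.32 in cardiac bodies relative to embryonic bodies (adjusted p = 0.0155). The remaining difference between cardiac bodies and ES cells was 0.46 (adjusted p = 0.551). Flt1 (6943162) had signals of 5.58 and 5.35 in ES cells, 9.10 and 8.35 in embryonic bodies and 5.81 and 5.72 in cardiac bodies. It had the same order of stages as Kdr, but its higher embryonic body sample was replicate 1, where for Kdr it was replicate 2. Flt1 was 9.58-fold higher in embryonic bodies than in ES cells (3.26 ± 0.28, adjusted p = 0.00424), and it fell by 2.96 ± 0.28 in cardiac bodies relative to embryonic bodies (adjusted p = 0.0107). The difference left between cardiac bodies and ES cells was 0.30 (adjusted p = 0.68).

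Flt4 ranged over less than 1 log2 unit, with probe set means of 6.70 and 6.74 in ES cells, 6.86 and 7.39 in embryonic bodies and 6.40 and 6.56 in cardiac bodies. The embryonic body samples were the highest here too, but 1 of them lay close to the ES cells. The difference was 0.41 ± 0.23 in embryonic bodies against ES cells (adjusted p = 0.268) and -0.65 in cardiac bodies against embryonic bodies (adjusted p = 0.141). Over the probe set means of all genes 19.2%, 8.52% and 8.75% were called in embryonic bodies against ES cells, cardiac bodies against ES cells and cardiac bodies against embryonic bodies. None of the 32 Flt4 probe sets passed the test on its own signal in any comparison, where the lowest adjusted p was 0.0816 and limma had 5, 3 and 8 of the 32 at an unadjusted p under 0.05.

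Nrp1 (6980016), the co-receptor, had the largest difference of the 9 genes in embryonic bodies against ES cells and stayed high afterwards. Its signals were 5.09 and 4.88 in ES cells, 11.19 and 9.99 in embryonic bodies and 9.38 and 9.24 in cardiac bodies. No ES cell sample came near those of either later stage. It was 48.6-fold higher in embryonic bodies (5.60 ± 0.40, adjusted p = 0.00294) and 20.1-fold higher in cardiac bodies than in ES cells (4.33 ± 0.40, adjusted p = 0.00711). The difference of -1.28 ± 0.40 in cardiac bodies against embryonic bodies did not pass the test (adjusted p = 0.179). Nrp1 was the single call among the 9 genes in cardiac bodies against ES cells, where 2.63% of all clusters were called higher and 0.686% lower, 3.32% in all. That call was lost without replicate 1 or 2 of the ES cells (adjusted p = 0.0538 and 0.0597) or replicate 1 of the cardiac bodies (adjusted p = 0.0594), with differences of 4.22 to 4.43. Neuropilin 1 is also known from smooth muscle and neurons. The mean of 10 smooth muscle and pericyte markers was 6.30 and 6.26 in ES cells, 8.43 and 8.31 in embryonic bodies and 8.14 and 8.03 in cardiac bodies, and the part of such cells in the Nrp1 signal was not tested.

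Of the junction genes, Cdh5 (6978695) had signals of 5.07 and 5.34 in ES cells, 9.41 and 10.26 in embryonic bodies and 6.64 and 6.58 in cardiac bodies. The stages did not overlap, and cardiac bodies lay between the other stages. Cdh5 was 24.8-fold higher in embryonic bodies than in ES cells (4.63 ± 0.31, adjusted p = 0.00271). In cardiac bodies it fell by 3.22 ± 0.31 relative to embryonic bodies (adjusted p = 0.0107). Cardiac bodies against ES cells gave 1.41 ± 0.31, which did not pass the test at the gene level (adjusted p = 0.086) and did as the mean of the 12 probe sets (1.48, adjusted p = 0.0236).

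Pecam1 (6791960) went the other way. CD31 is known from endothelium, platelets and leukocytes, and is also a surface molecule of undifferentiated mouse ES cells. Its signals were 8.75 and 8.86 in ES cells, 7.38 and 7.06 in embryonic bodies and 8.41 and 9.29 in cardiac bodies. Both embryonic body samples were below all others. Pecam1 fell by 1.59 ± 0.32 in embryonic bodies relative to ES cells, to 0.333 of its ES cell level (adjusted p = 0.0368). This call was lost without either ES cell sample (adjusted p = 0.132 and 0.145) and without either embryonic body sample (adjusted p = 0.112 and 0.158). The difference of 1.63 ± 0.32 in cardiac bodies against embryonic bodies was not called (adjusted p = 0.0662). It passed once each sample was centred on its median (adjusted p = 0.042), after quantile normalization (0.0403), with low clusters left out (0.0406) and as the mean of its probe sets (0.0194). Of the 12 pluripotent cell markers, 11 fell in embryonic bodies relative to ES cells, where 5.28% of all clusters fell. In cardiac bodies relative to embryonic bodies 8 of them rose, where 2.11% of all clusters rose, as their means above show. Without replicate 1 or 2 of the cardiac bodies 5 and 6 of these rises were called. Their part in the Pecam1 signal was not tested.

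Tek (6915506), the receptor of the angiopoietins, had signals of 6.19 and 6.57 in ES cells, 8.07 and 9.31 in embryonic bodies and 5.67 and 6.54 in cardiac bodies. ES cells and cardiac bodies overlapped, and embryonic bodies lay above both. The samples of embryonic bodies differed by 1.23, more than for the other genes here. Tek was 4.96-fold higher in embryonic bodies than in ES cells (2.31 ± 0.49, adjusted p = 0.0415). The call was lost with only these stages in the fit (adjusted p = 0.0567), and so without either cardiac body sample, without replicate 1 or 2 of the ES cells (0.166 and 0.122) and without replicate 2 of the embryonic bodies (0.13). For cardiac bodies against embryonic bodies the difference was -2.59 ± 0.49 (adjusted p = 0.0606). It passed under centring (0.0354), quantile normalization (0.039), with low clusters left out (0.0357) and as the mean of its 29 probe sets (0.0169).

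Tie1 (6924894), an orphan receptor that pairs with Tek, had signals of 5.78 and 5.61 in ES cells, 7.08 and 7.81 in embryonic bodies and 5.93 and 5.75 in cardiac bodies. Again the embryonic body samples stood above all others. Tie1 was 3.36-fold higher in embryonic bodies than in ES cells (1.75 ± 0.28, adjusted p = 0.0202). This call was lost without replicate 1 or 2 of the ES cells (adjusted p = 0.0838 and 0.0989) and without replicate 2 of the embryonic bodies (0.061). It fell by 1.60 ± 0.28 in cardiac bodies relative to embryonic bodies (adjusted p = 0.0487), a call lost when any of the 6 samples was left out (adjusted p from 0.0569 to 0.176).

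In all, 4 of the 9 genes fell in cardiac bodies relative to embryonic bodies (Kdr, Flt1, Cdh5 and Tie1) and none rose, where 1.02% of all clusters were called lower and 2.11% higher, 3.13% in all. Their median difference was -1.60, against 0.0103 over all clusters. Without replicate 1 of the cardiac bodies none of the 4 was called, and none without replicate 2. The differences without 1 of these samples stayed between -2.80 and -2.88 for Kdr (adjusted p = 0.0825 and 0.0918), -2.91 and -3.00 for Flt1 (0.0634 and 0.0689) and -3.19 and -3.25 for Cdh5 (0.0634 and 0.0707), and were -1.51 and -1.70 for Tie1. The comparisons share samples, the embryonic bodies entering both of those in which these genes were called.

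Vegfa (6855659), the ligand, which many cell types make and which is induced by low oxygen, did not pass the test in any comparison. Its signals were 9.45 and 8.67 in ES cells, 9.47 and 9.45 in embryonic bodies and 9.30 and 9.06 in cardiac bodies. ES cells overlapped both later stages, while both embryonic body samples lay above those of cardiac bodies. The widest spread was between the samples of ES cells. The differences were 0.40 ± 0.29 in embryonic bodies against ES cells (adjusted p = 0.462), 0.12 in cardiac bodies against ES cells (adjusted p = 0.897) and -0.28 in cardiac bodies against embryonic bodies (adjusted p = 0.702). None of the 4 other ligands of the family passed the test in any comparison, with 1, 1 and 2 of the 4 at an unadjusted limma p under 0.05. Vegfb, Vegfc and Vegfd had differences from -0.72 to 0.85 over the comparisons. Pgf, placental growth factor, which binds Flt1, had signals of 5.02 and 4.70 in ES cells, 6.16 and 8.12 in embryonic bodies and 5.70 and 5.36 in cardiac bodies. Its difference in embryonic bodies against ES cells was 2.28 ± 0.62 (adjusted p = 0.0807).

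Each exon-level probe set was also tested on its own signal, over all 229581 of them. Probe sets of a gene were read in the same samples, so their counts are no separate evidence for its gene-level call. In embryonic bodies against ES cells, where 4.5% were called higher and 3.71% lower, 29 of 33 Kdr probe sets rose, 28 of 33 of Flt1, 11 of 12 of Cdh5 and 21 of 22 of Nrp1. For Pecam1 8 of 18 fell and none rose. For Tek 15 of 29 rose, and all 29 had positive differences, between 0.17 and 3.14. Tie1 probe sets differed among themselves: 15 of 33 rose, and the differences ran from -0.21 to 5.999. Its probe set 5511478 had 3.03 and 1.64 in ES cells, 7.45 and 9.22 in embryonic bodies and 3.15 and 2.95 in cardiac bodies. By contrast, its probe set 5496289 had 9.55 and 9.95, 9.68 and 9.49, and 9.92 and 9.65 at the same stages. These were the highest difference and the second lowest of Tie1 and were picked after their values were seen.

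Between cardiac and embryonic bodies, where 0.689% of probe sets were called lower and 1.93% higher, 25 of 33 Kdr, 22 of 33 Flt1, 9 of 12 Cdh5, 9 of 33 Tie1 and 4 of 29 Tek probe sets fell, and 3 of 18 Pecam1 probe sets rose. None of Nrp1 was called, 16 of 22 were at an unadjusted limma p under 0.05, and all 22 had negative differences, from -2.45 to -0.78. Between cardiac bodies and ES cells, where 2.79% were called higher and 0.45% lower, 19 of 22 Nrp1 probe sets rose and 1 of 12 of Cdh5, and no others of these genes were called. Vegfa had 1 call among its 16 probe sets in the 3 comparisons, a rise of probe set 5308703 in embryonic bodies against ES cells, described below.

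**Figure D2:**
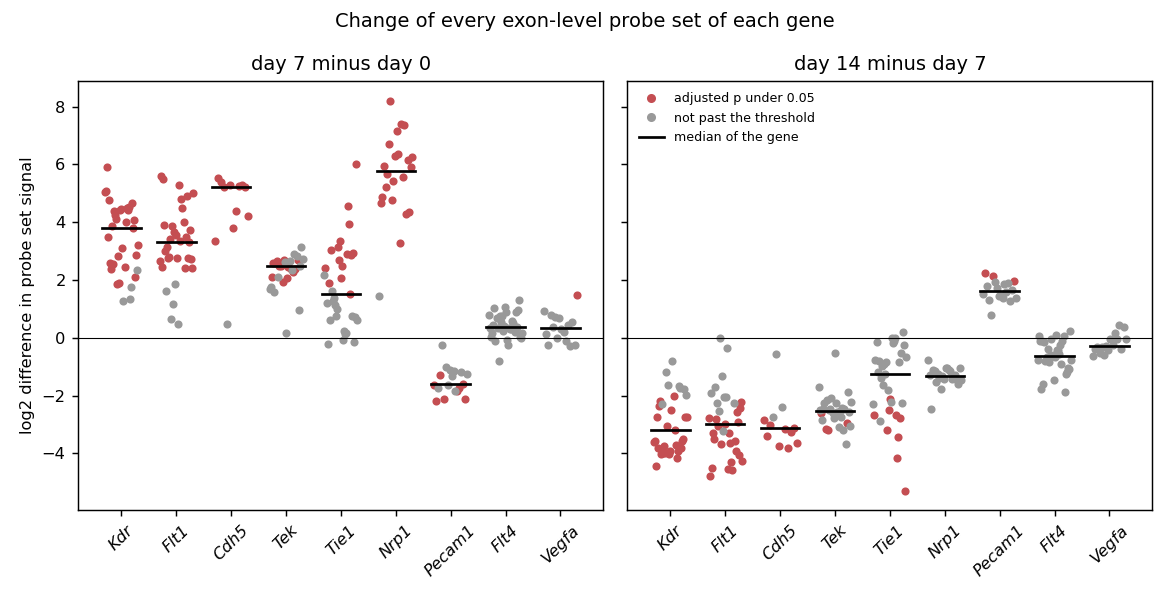
Log2 difference in signal (y axis) of every exon-level probe set of the 9 genes, as day 7 minus day 0 on the left and day 14 minus day 7 on the right. Red points had an adjusted p under 0.05, grey points did not, and bars are medians of a gene. Tie1 probe sets spread from -0.21 to 5.999 on the left, and all 18 Pecam1 probe sets lie below 0 on the left and above 0 on the right.

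The other genes of the pathway were read from lists, whose counts stand against the shares of all clusters called: 5.35% higher and 5.28% lower in embryonic bodies against ES cells, 2.63% and 0.686% in cardiac bodies against ES cells, and 2.11% and 1.02% in cardiac bodies against embryonic bodies. A list of angiopoietin and apelin ligands and receptors also held the angiopoietin-like Angptl4. Of its 5 measured genes, 3 rose in embryonic bodies relative to ES cells and 1 fell. Aplnr, the apelin receptor of early vessels and mesoderm, had 5.51 and 5.12 in ES cells, 8.62 and 8.04 in embryonic bodies and 5.64 and 5.12 in cardiac bodies. It rose by 3.02 ± 0.30 (adjusted p = 0.0058) and fell by 2.95 in cardiac bodies relative to embryonic bodies (adjusted p = 0.0125). Angpt1 and Angpt2, ligands of Tek, rose by 1.49 ± 0.27 and 1.16 ± 0.25 (adjusted p = 0.0271 and 0.0432). Angptl4, a secreted inhibitor of lipoprotein lipase, fell by 2.25 ± 0.21. It was also the only gene of the list called in cardiac bodies against ES cells, as lower, a call that needed all samples. Leaving out any 1 sample of the ES cells or embryonic bodies left 1 of the 3 rises called, and leaving out either cardiac body sample left 2. The fall of Aplnr was lost without replicate 1 of the embryonic bodies and without either cardiac body sample.

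Of 12 measured semaphorins, plexins and adaptors that work with neuropilins, 3 rose in embryonic bodies relative to ES cells and none fell (5.35% and 5.28% of all clusters), with a median of 0.549 (-0.0229 over all clusters). Plxnd1, the endothelial semaphorin receptor, rose by 2.93 ± 0.30 (adjusted p = 0.00616), Plxna2 by 2.47 ± 0.36 and the ligand Sema3f by 1.08 ± 0.22. In cardiac bodies relative to embryonic bodies Plxnd1 fell by 2.32 and Sema3f by 1.40, where 1.02% of all clusters fell. Plxna4 rose in cardiac bodies relative to ES cells, by 2.53 (adjusted p = 0.015), where 2.63% of all clusters rose, and this call was lost without either ES cell sample or replicate 1 of the cardiac bodies. Without either ES cell sample 1 of the 3 rises at day 7 was called. The 2 falls were both lost when any sample but replicate 1 of the embryonic bodies was left out, and without that one 1 of them was called.

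Of 24 endothelial transcription factors, 9 rose in embryonic bodies relative to ES cells and 1 fell (5.35% and 5.28% of all clusters), with a median of 1.37 (-0.0229 over all clusters). ETS factors were among those that rose. Fli1 had 4.76 and 4.56 in ES cells, 7.50 and 8.67 in embryonic bodies and 5.55 and 5.33 in cardiac bodies (3.43 ± 0.39 in embryonic bodies against ES cells, adjusted p = 0.0083). Ets1 rose by 3.41 ± 0.26 (adjusted p = 0.00325) and Erg by 2.10 ± 0.46 (adjusted p = 0.0451), while Etv2, the ETS factor that starts the endothelial and blood programme, had 6.43 and 6.42 in ES cells and 6.81 and 7.95 in embryonic bodies and 6.79 and 6.21 in cardiac bodies, and did not pass the test at day 7 against day 0 (adjusted p = 0.222). The arterial factor Hey2 rose by 3.60 ± 0.48, Prox1, which specifies lymphatic endothelium and is also a cardiac factor, by 3.19 ± 0.26, Mef2c, of heart and vessels, by 3.18 ± 0.41, and Lmo2, a partner of blood and endothelial complexes, by 2.34 ± 0.21. Klf2, which responds to flow in endothelium and is also part of the ES cell network, fell by 2.30 ± 0.18. In cardiac bodies relative to embryonic bodies 4 fell (Fli1 by 2.64, Ets1 by 2.39, Elk3 by 1.68 and Lmo2 by 1.29) and Klf2 rose by 1.40, a call lost when any sample was left out. Prox1 and Mef2c were higher in cardiac bodies than in ES cells, by 3.93 and 3.21, and 1 of these 2 calls was lost without any 1 sample of the ES cells or cardiac bodies. Without replicate 1 of the embryonic bodies 13 of the 24 rose against ES cells, without replicate 2 of them 7 did, and without replicate 1 or 2 of the ES cells 4 and 3 did. Of the 4 falls in cardiac bodies, 1 was called without replicate 1 of the embryonic bodies, without replicate 2 of the cardiac bodies or without either ES cell sample, and 0 without replicate 2 of the embryonic bodies or replicate 1 of the cardiac bodies.

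Of 26 measured endothelial surface and junction genes, 10 rose in embryonic bodies relative to ES cells and 1 fell (5.35% and 5.28% of all clusters), with a median of 0.709 (-0.0229 over all clusters). Emcn, endomucin, had 4.03 and 3.66 in ES cells, 6.87 and 10.05 in embryonic bodies and 4.31 and 4.55 in cardiac bodies (4.61 ± 0.97 against ES cells at day 7, adjusted p = 0.0407). Calcrl and Ramp2, which form the adrenomedullin receptor, rose by 4.28 ± 0.67 and 2.47 ± 0.52, Cd93 by 2.97 ± 0.44, Cd34 by 2.46 ± 0.49 and Lyve1, of lymphatic vessels, by 2.35 ± 0.51. Jam2, a junctional adhesion molecule, fell by 3.95 ± 0.33 in embryonic bodies relative to ES cells and rose by 3.27 in cardiac bodies relative to embryonic bodies, and like Pecam1 it was lowest in embryonic bodies. Cdh13, T-cadherin, was highest in cardiac bodies, with 10.61 and 10.02, against 5.65 and 5.71 in ES cells (4.64, adjusted p = 0.00192). The endothelial genes Cldn5, Esam, Plvap, Robo4, Icam2 and Eng were not called in any comparison. Cd93 was the only fall in cardiac bodies relative to embryonic bodies, where 1.02% of all clusters fell, and its call was lost when any sample was left out. The 10 rises depended on single samples: without either ES cell sample 0 were called, without either cardiac body sample 4, without replicate 1 of the embryonic bodies 8 and without replicate 2 of them 3. The fall of Jam2 was called in each of these fits. Jam2 and Cdh13 were the rises in cardiac bodies relative to embryonic bodies, and 1 of these 2 calls was lost without replicate 1 of the embryonic bodies or replicate 2 of the cardiac bodies.

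Of 23 measured secreted, signalling and cytoplasmic genes of endothelium, 6 rose in embryonic bodies relative to ES cells and 1 fell (5.35% and 5.28% of all clusters), with a median of 0.643 (-0.0229 over all clusters). Gimap4 had 3.73 and 3.57 in ES cells, 7.29 and 8.18 in embryonic bodies and 3.86 and 3.70 in cardiac bodies, so that cardiac bodies were back near ES cells. It rose by 4.09 ± 0.32 (adjusted p = 0.00336) and fell by 3.95 in cardiac bodies relative to embryonic bodies. Tspan18 (4.51 ± 0.29), Myct1 (3.66 ± 0.31), the arterial ephrin Efnb2 (2.80 ± 0.60), Arhgap29 (2.06 ± 0.30) and Heg1 (1.81 ± 0.20) rose as well, and Gpr4 fell by 2.504 ± 0.33, a call lost without either embryonic body sample. Tspan18 and Heg1 were also higher in cardiac bodies than in ES cells, by 4.19 and 2.32, with 1 of these 2 calls lost without replicate 1 of the ES cells or of the cardiac bodies, while Myct1 and Ephb4 fell in cardiac bodies relative to embryonic bodies, by 2.65 and 1.05. Mature endothelial genes in this list, Vwf and Nos3, were not called. Without replicate 1 of the embryonic bodies 8 of the 23 rose against ES cells, without replicate 2 of them 4 did, and without replicate 1 or 2 of the ES cells 3 and 4 did. The 3 falls in cardiac bodies were 0 and 1 without replicate 1 or 2 of the cardiac bodies, and 2 of them were called without any other 1 sample.

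Of 19 genes of oxygen sensing and of Vegfa regulation, none was called in embryonic bodies against ES cells, and limma had 5 at an unadjusted p under 0.05. In cardiac bodies 2 rose relative to ES cells: Ppargc1a, a coactivator of mitochondrial genes that can induce Vegfa, by 5.47 and Adm, adrenomedullin, by 2.04, and both rose relative to embryonic bodies, by 5.16 and 2.20. In each of these comparisons 1 of the 2 calls was lost when any sample but replicate 2 of the cardiac bodies was left out. Of 22 measured genes downstream of VEGF receptors, 3 rose in embryonic bodies relative to ES cells (Pik3r1 by 2.15, Akt1 by 1.55 and the adaptor Shc2 by 1.53) and Spry4, a feedback inhibitor, fell by 2.47, against 5.35% and 5.28% of all clusters. In cardiac bodies relative to ES cells Akt1 and Prkca rose, by 1.62 and 1.26. Of these 2 calls 0 were left without either ES cell sample or replicate 1 of the cardiac bodies, and 1 without any other sample. In cardiac bodies relative to embryonic bodies Spry4 rose by 1.70 and Shc2 fell by 1.42, and both of these calls were lost when any sample was left out. Of the 3 rises at day 7, 0 were called without either ES cell sample and 1 without replicate 2 of the embryonic bodies.

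The samples of embryonic bodies differed from each other in endothelial markers. Over 14 endothelial markers, which include 7 of the genes above, the mean log2 signal was 7.64 in replicate 1 and 8.57 in replicate 2, and 12 of the 14 were higher in replicate 2, by a median of 0.906 over the 14. The exceptions were Flt1 and Pecam1, at -0.74 and -0.32, and the largest difference was that of Emcn, 3.19. Nrp1 was also lower in replicate 2, by 1.20. In ES cells the 14 markers had means of 6.20 and 6.24, and in cardiac bodies 6.17 and 6.36, so that both embryonic body samples were above all of the others.

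Blood and matrix markers were higher in replicate 1 of the embryonic bodies. The mean of 15 blood markers was 7.37 in replicate 1 and 6.22 in replicate 2, with 1 of 15 higher in replicate 2. The median of replicate 2 minus replicate 1 over these 15 was -0.40. The embryonic globins Hba-x and Hbb-y had 12.31 and 10.48 in replicate 1, against 8.62 and 5.90 in replicate 2, and the erythroid factor Klf1 had 7.60, against 4.85. The mean of 8 fibroblast and matrix markers was 8.76 and 6.93, with none of 8 higher in replicate 2. Smooth muscle and pericyte markers were closer, at 8.43 and 8.31, with 3 of 10 higher in replicate 2. Epithelial markers, 5 in number, had means of 8.56 and 8.34 in ES cells, 10.60 and 10.55 in embryonic bodies and 8.16 and 8.32 in cardiac bodies, and so were also highest in embryonic bodies. Over all clusters the median of replicate 2 minus replicate 1 was 0.0297. The blood list had 2 rises and 4 falls in embryonic bodies against ES cells (5.35% and 5.28% of all clusters). Cd44 and Runx1 rose and Laptm5, Cd68, Coro1a and Spi1 fell, while Hba-x, Hbb-y and Klf1 were not called. Without any 1 sample of these stages 1 of the rises and 1 of the falls were still called, and without either cardiac body sample 2 and 3. The means of the list were 6.35 and 6.36 in ES cells and 6.25 and 6.28 in cardiac bodies. The part of blood, matrix, epithelial and other cells in the differences of the VEGF receptor genes was not tested.

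**Figure D3:**
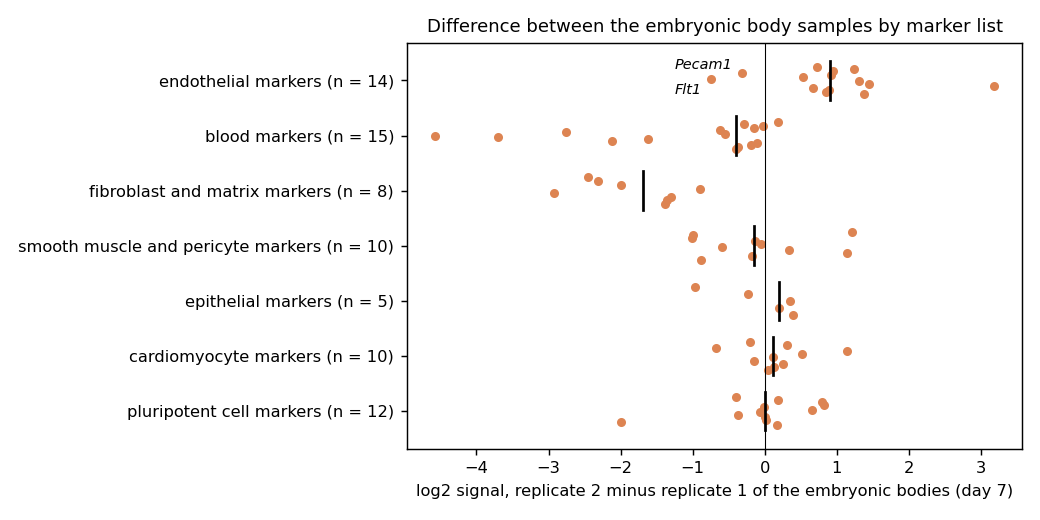
Log2 signal in replicate 2 minus replicate 1 of the embryonic bodies (x axis) for each gene of 7 marker lists (y axis), with points for genes and bars for list medians. Endothelial markers lie to the right, 12 of 14 above 0, with Flt1 and Pecam1 named as the exceptions, while 14 of 15 blood markers and all 8 fibroblast and matrix markers lie to the left.

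Probe set usage within Flt1 and Vegfa was taken within each sample, by subtracting from the log2 signal of the probe set the median over its gene. Flt1 has a soluble form that lacks the membrane and kinase parts, and Vegfa is spliced into isoforms that differ in how they bind heparin. No probe set positions are used here, so none is assigned to an exon or an isoform. The test was run over probe sets of genes whose median was at least 7.26 in both stages, the 50th percentile of the exon-level table. A call needed both a difference of at least 1 and an adjusted p below 0.05. None of 95195 probe sets was called in embryonic bodies against ES cells (0%), none of 98800 in cardiac bodies against ES cells (0%) and none of 100538 in cardiac bodies against embryonic bodies (0%). At an unadjusted p under 0.05 limma had 7620, 5441 and 4637 of them (8%, 5.51% and 4.61%).

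None of the 33 Flt1 probe sets entered that test, because the gene medians were 5.61 and 5.13 in ES cells, 8.89 and 7.91 in embryonic bodies and 5.87 and 5.65 in cardiac bodies. Their usage is described from a fit over 205007 probe sets without the level filter, where no Flt1 probe set was called and 0%, 0.0766% and 0% of all were, in the same order of comparisons. The lowest adjusted p was 0.0609 in embryonic bodies against ES cells, with 14 of 33 at an unadjusted p under 0.05 (11.1% of all probe sets in this fit). It was 0.478 in cardiac bodies against ES cells, with 2 of 33 (8.34% of all), and 0.0861 in cardiac bodies against embryonic bodies, with 15 of 33 (7.42% of all). In embryonic bodies against ES cells, 7 probe sets were higher in usage by 1 or more and 5 lower. Between cardiac bodies and ES cells none differed by 1, with a range from -0.96 to 0.75. The median absolute difference between samples of a stage was 0.44 in ES cells, 0.35 in embryonic bodies and 0.39 in cardiac bodies.

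Flt1 probe sets with lower and with higher usage in embryonic bodies differed in their median ES cell signal. Their ranges overlapped, at 5.43 to 7.15 and 1.81 to 6.16. Probe set 5076255 had usages of 1.67 and 1.91 in ES cells, -0.90 and -0.64 in embryonic bodies and 1.70 and 1.31 in cardiac bodies. Its own signal was 7.28 and 7.03, 7.996 and 7.27, and 7.57 and 6.96 at these stages, so that the signal moved by 0.48 in embryonic bodies against ES cells while the gene moved by over 3. Probe set 4759345 was similar, with usages of 1.16 and 1.63, -0.94 and -1.02, and 1.69 and 1.62. At the other end, probe set 4360303 had usages of -1.59 and -0.99 in ES cells, 0.99 and 1.52 in embryonic bodies and -1.03 and -0.74 in cardiac bodies, with signals of 4.01 and 4.14, 9.89 and 9.43, and 4.85 and 4.91. Probe set 4500095 had usages of -3.69 and -3.42, -0.96 and -1.27, and -2.86 and -3.07. The 7 probe sets with higher usage had a median ES cell signal of 4.36 and rose in signal by 4.50 to 5.59, all 7 called. The 5 with lower usage had a median ES cell signal of 6.29, reached 7.27 to 7.68 in embryonic bodies and differed in signal by 0.48 to 1.84, none called. The other 21 rose by 2.40 to 3.9995, all 21 called. Within a gene, a usage difference is the signal difference minus a value shared by all its probe sets. The ranges of signal difference in these groups thus follow from the grouping and are no separate result. The ES cell signal of a probe set also enters the grouping, and its part in the usage differences was not tested.

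All 16 Vegfa probe sets entered the test and none was called, with a lowest adjusted p of 0.431 in embryonic bodies against ES cells, 0.747 in cardiac bodies against ES cells and 1 in cardiac bodies against embryonic bodies. Of the 16, limma had 4, 2 and 2 at an unadjusted p under 0.05. Probe set 5308703 differed most. Its usages were -1.70 and -0.95 in ES cells, 0.04 and -0.09 in embryonic bodies and -0.33 and 0.30 in cardiac bodies. Both later stages lay above ES cells without overlap, by 1.30 ± 0.32 and 1.31 ± 0.32. Its signal was 7.80 and 7.81 in ES cells, 9.43 and 9.11 in embryonic bodies and 8.99 and 9.47 in cardiac bodies, and this signal rose in embryonic bodies against ES cells (1.46 ± 0.29, adjusted p = 0.0339) and was not called in cardiac bodies against ES cells (1.43, adjusted p = 0.0628). Probe sets 4412508 and 4539968 were higher in usage in embryonic bodies than in ES cells by 0.76 and 0.63, and probe set 4777501 had the highest usage of the gene, at 1.34 and 1.22, 1.61 and 2.05, and 1.37 and 1.18 over the stages. Probe set 4453792 had the most negative difference, -0.65 in cardiac bodies against ES cells. The median absolute difference between samples of a stage was 0.43 in ES cells, 0.22 in embryonic bodies and 0.16 in cardiac bodies.

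**Figure D4:**
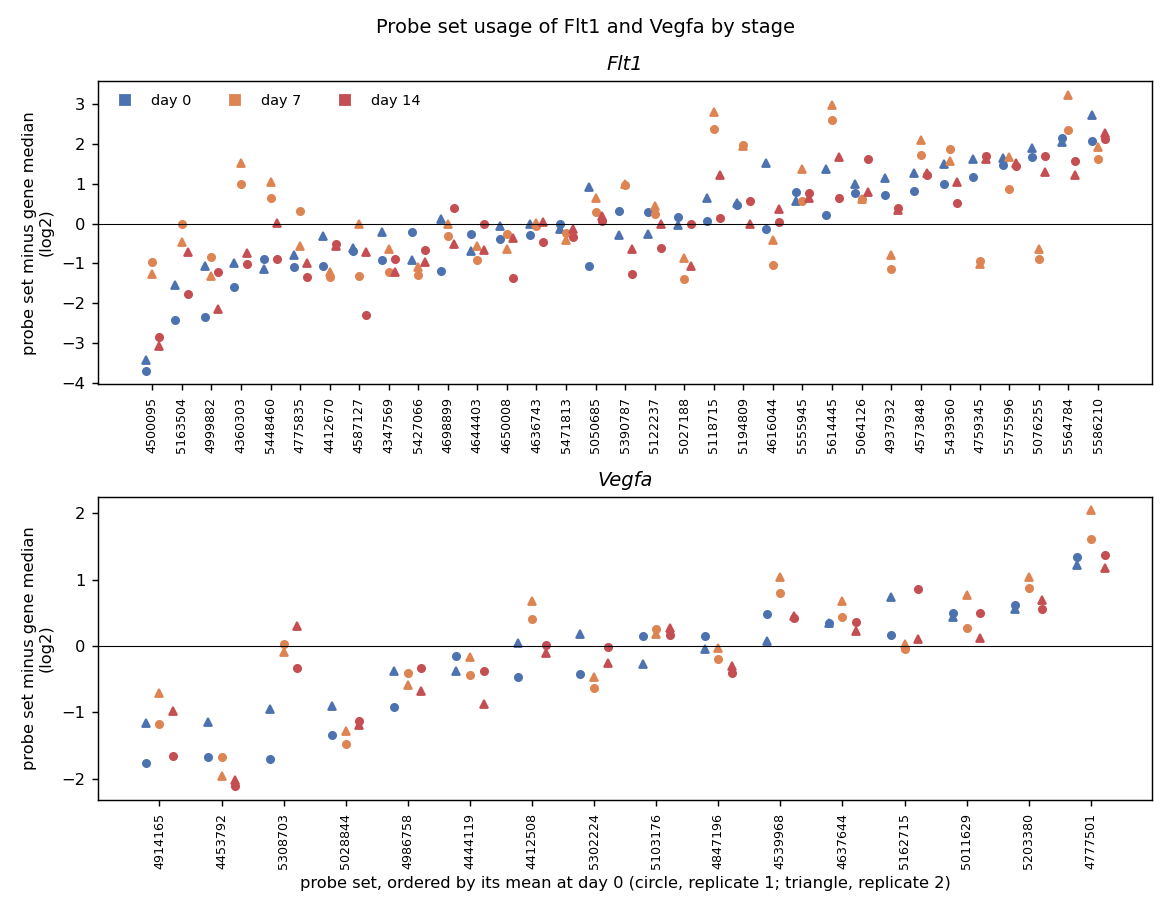
Log2 signal of each probe set minus the median of its gene (y axis) for the 33 probe sets of Flt1 (top) and the 16 of Vegfa (bottom), ordered along the x axis by their mean in ES cells. Circles are replicate 1 and triangles replicate 2, blue for day 0, orange for day 7 and red for day 14. In Flt1 the day 7 samples lie apart from both other stages at some probe sets, such as 5076255 below and 4360303 above them, and in Vegfa the ES cells lie below at 5308703.

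Clusters with a pattern most like Kdr, Cdh5 and Vegfa over the 6 samples were taken from 1499 clusters with 1 symbol and a range of 2 or more. For Kdr these were Plxnd1, Sox11, Rhoj, Ikzf2 and Fmo1, with a Pearson r of 0.997 for Plxnd1. Rhoj, a small GTPase, had 5.27 and 5.21 in ES cells, 8.83 and 10.35 in embryonic bodies and 6.33 and 5.90 in cardiac bodies. For Cdh5 they were Myct1, Smad3, Dact1, Has2 and Kitl, with an r of 0.997 for Myct1. For Vegfa the closest, Olfr586, had an r of 0.93, followed by Olfr820, Olfr488, Anxa2 and Lcorl. Like Vegfa, each of these was lowest in replicate 2 of the ES cells, Olfr586 at 4.17 against 6.55 in replicate 1. Their likeness to Vegfa thus includes a difference between samples of 1 stage. For Kdr and Cdh5, such an order of stages can recur in many genes over 6 samples in 3 stages. All these values are a description with no test.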

How the data were processed

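The authors deposited log2 signals for 6 samples at 2 levels. According to the submitters' processing notes these were made with RMA and Affymetrix Power Tools, of versions not given in the sources used here. Total RNA was freed of rRNA before amplification, per the labels, and the core probe sets (mm9) gave 23332 transcript clusters and 229581 exon-level probe sets. RMA corrects background and normalizes between arrays, and it can compress differences of dim probes. No detection calls are in the tables, and precision is limited by the number of arrays.

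Rows were named from the platform annotation, with symbols brought up to date through RefSeq's GRCm38.p6 gene table: 15002 gene-level rows carried 1 symbol, 1013 several and 7317 none. Values were tested as deposited with limma 3.58.1 (lmFit and eBayes, 2-sided) in R 4.3.3. All 6 samples were in 1 fit with stage as the only term, adjusted by Benjamini-Hochberg over all rows. For embryonic bodies against ES cells, simulated log2 changes of 1, 2 and 4 were recovered in 4.48%, 53.7% and 81.8% of gene-level rows. In the usage test 0%, 22.4% and 71.2% were recovered. A row that was not called may thus still have changed. In each simulation the changes were put into 67, 67 and 66 rows and no other row changed, whereas 10.6% of clusters were called in the data. Recovery after adjustment depends on the share of changed rows, so these percentages need not hold for the data. For usage, genes with under 4 probe sets were left out, as were probe sets below the 25th percentile in both stages.

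The members, lists and tests were chosen with earlier results of these data known. Named were the members, up to 6 called genes per list and comparison with the largest change, the 5 clusters most like Kdr, Cdh5 and Vegfa, and Flt1 and Vegfa probe sets with the largest usage differences. In the marker lists of cell types other than endothelium, called genes were named for blood alone. Marker genes needed to describe a group, listed genes of known role that were not called, and the remaining called ETS factor Erg were added after their values were seen. Alternatives were other normalizations, a low-value filter, other fits, a replicate block and leaving out each sample.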

Additional observations from a re-analysis of the deposited data

How the results depend on the processing

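Over the 27 changes of measured genes and 375 alternatives, 335 stayed on the same side of the threshold. Of the rest, 30 lost the call and 10 gained one, and 0 called changes reversed. Some of the 335 were uncalled changes that turned in direction. Pecam1 in cardiac bodies against ES cells, for example, was 0.05 with all samples and -0.39 without replicate 2 of the cardiac bodies. The calls of Kdr, Flt1, Cdh5 and Nrp1 in embryonic bodies against ES cells held under every alternative run, including each sample left out (adjusted p at most 0.0379). Leaving out a sample lowered the counts of called clusters, to 317 to 900 higher and 248 to 870 lower in embryonic bodies against ES cells (1249 and 1232 with all samples), 138 to 475 higher and 11 to 70 lower in cardiac bodies against ES cells (614 and 160), and 116 to 238 higher and 10 to 90 lower in cardiac bodies against embryonic bodies (493 and 237). The lower clusters in cardiac bodies against ES cells were 276 with samples centred on their medians, 284 with low clusters left out and 70 with only these stages in the fit. In cardiac bodies against embryonic bodies, 238 were higher and 72 lower with only these stages, and 366 lower with low clusters left out; fewer samples or fewer clusters tested go with these counts, and the cause was otherwise not tested. Probe sets of changed usage were 19 in embryonic bodies against ES cells with a trended, robust prior, an alternative chosen after the data were seen, and 157 in cardiac bodies against ES cells without the level filter.

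Replicate numbers were not taken as pairs, because the labels name nothing that they share and 2 of the 3 correlations were under 0.1: differences of replicate 2 minus 1 correlated across clusters at 0.0826 between ES cells and embryonic bodies, 0.486 between ES cells and cardiac bodies and 0.0913 between embryonic and cardiac bodies. With the replicate number as a block, 1437 clusters were higher and 1403 lower in embryonic bodies against ES cells. Among the measured genes the block changed 2 calls, both in cardiac bodies against embryonic bodies: Tek passed (adjusted p = 0.0252) and Tie1 did not (adjusted p = 0.0718).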
